A study of Homo sapiens with 4 samples.

Results

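The genes of the hypoxia response and of glycolysis were read in 4 RNA sequencing libraries of A549 cells, an established human lung carcinoma line. A list of 39 gene symbols was matched to the deposited tables. All 39 were present, and the 38 that averaged 30 normalized counts or more over the 4 libraries were kept, out of 12742 genes that passed the same minimum. HK2, with a mean of 73.5 normalized counts, was the lowest gene kept, and ANKRD37, at 21.9, was the gene left out. Lentivirus had given the cells a stable short hairpin RNA (shRNA) against LIMA1 or a negative control, and they were either given nutlin-3a at 10 µM or left without it. The groups, with 1 library each, were LIMA1 shRNA cells with nutlin-3a, control shRNA cells with nutlin-3a, LIMA1 shRNA cells untreated and control shRNA cells untreated. RNA was taken at 24 h, and all cultures grew in RPMI with fetal calf serum; the labels describe no low-oxygen culture. The sample titles write si, whereas the protocols describe the lentiviral hairpin, which was followed here. The protocols name a single hairpin design for LIMA1 and do not say whether the infected cells were cloned.

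LIMA1 encodes EPLIN, a protein that binds actin filaments, and nutlin-3a stabilises the transcription factor p53 by displacing it from MDM2. The study asked what LIMA1 loss does to transcription driven by p53. Under low oxygen, the subunits HIF-1α (HIF1A) and HIF-2α (EPAS1) escape hydroxylation by the EGLN enzymes, pair with ARNT and bind short DNA motifs called hypoxia response elements. Their targets include glucose transporters, most enzymes of glycolysis, and genes for acid export, blood vessel growth and mitochondrial clearance. Tumour cells often run this programme with oxygen present, and p53 is known to act on glucose use through targets such as TIGAR.

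The libraries held 15150700 to 16744900 fragments and were alike in depth. LIMA1 stood at 133 normalized counts with LIMA1 shRNA against 866 with control shRNA under nutlin-3a, and at 68.3 against 416 in untreated cells. Of 10 markers listed for A549, KRT8, KRT18, KRT7, CDH1, ALDH1A1, AKR1B10 and AKR1C1 were abundant in all 4 libraries, EPCAM was at 31.1 to 229, and SFTPB and NKX2-1 had at most 1 fragment. The 4 endothelial markers summed to at most 12.9 normalized counts in any library, and the 6 leukocyte markers to 947 and 1007 with nutlin-3a (LIMA1 and control shRNA) and to 711 and 765 without. Of the leukocyte list, CD68 was at 613 to 897 and CD14 at 65.4 to 105, while PTPRC and CD3E had at most 1 fragment. LYZ was at 21.7 with LIMA1 shRNA against 3.22 with control shRNA under nutlin-3a, and at 22.8 against 3.97 in untreated cells. The 7 fibroblast markers summed to 31.1 and 66.5 with nutlin-3a (LIMA1 and control shRNA) and to 75.2 and 141 without; the part of these markers in the results was not tested. With 1 library per group there is no replicate error and no test. Differences are between log2(normalized count + 1) values and are sizes between libraries; brackets after them hold 95% counting intervals, which cover counting error only. The size for calling a gene was 1 on this scale, up or down. In bulk RNA, fewer cells with a transcript and less transcript per cell cannot be told apart.

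**Figure D1:**
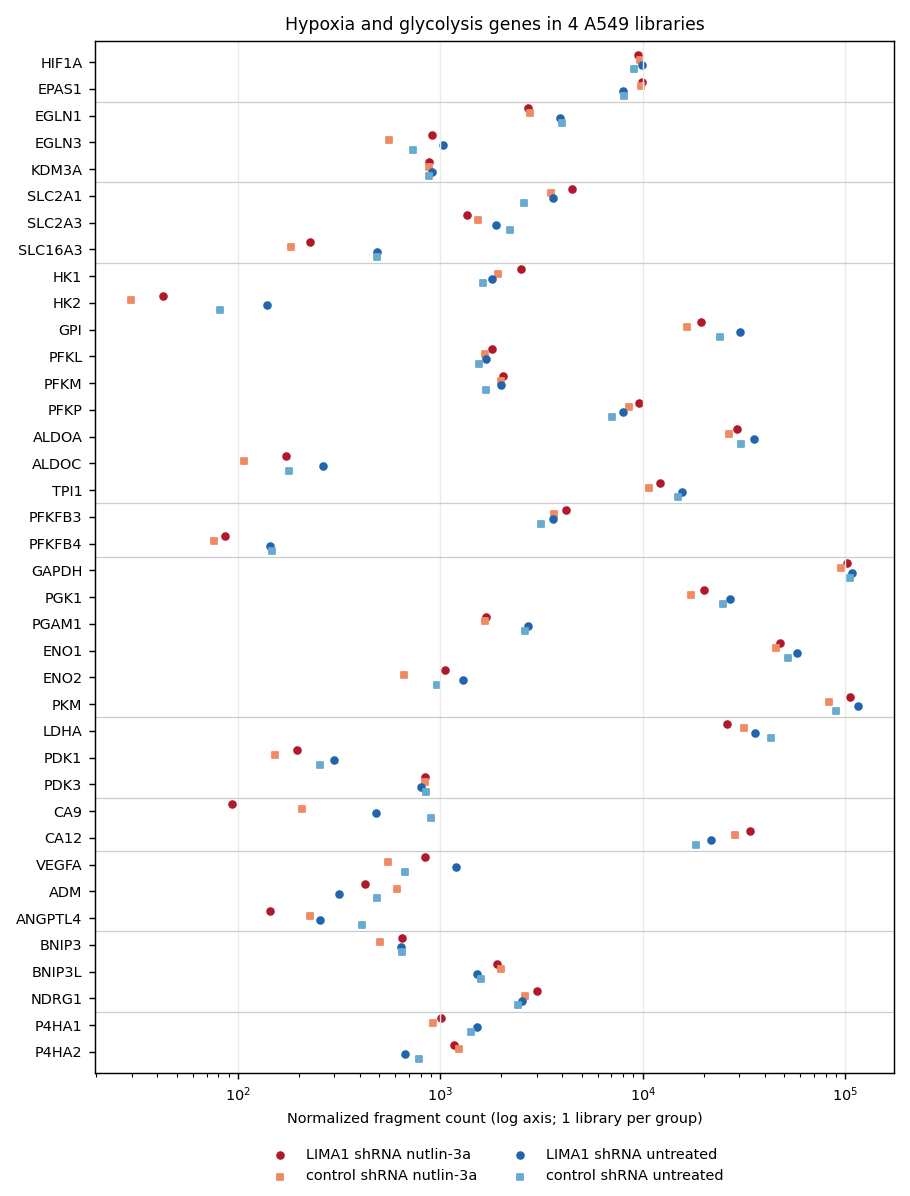
Normalized fragment count (log axis, not divided by gene length) of each of the 38 genes in the 4 libraries, with 1 point per library and lines between functional groups. CA9, HK2 and SLC16A3 lay lower in both nutlin-3a libraries than in both untreated ones, and CA12 and P4HA2 lay higher.

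With nutlin-3a, the hypoxia and glycolysis genes split. CA9, the lactate exporter SLC16A3, hexokinase 2 and the later steps of glycolysis were lower in both cell lines, while GLUT1, hexokinase 1, the phosphofructokinase PFKP, CA12 and P4HA2 were higher. At the size of 1, 3 of 38 genes were lower and 0 higher in LIMA1 shRNA cells, where 6.08% of all measured genes were lower and 7.29% higher. In control shRNA cells the counts were also 3 lower and 0 higher, against 5.64% and 5.54% of all genes. The 3 genes, CA9, HK2 and SLC16A3, were the same in both lines; 4.58% of all genes were lower in both, and 4.7% were higher in both, against 0 of the 38. A share of 3 in 38 is near these backgrounds. At a size of 1.5-fold, 9 of 38 genes were lower and 2 higher in each line, where 14.6% of all genes were lower and 15.6% higher in LIMA1 shRNA cells, and 12.8% and 13.3% in control shRNA cells. Of these, 8 were lower in both lines (10.4% of all genes were) and 2 higher in both (10.9%). By sign alone, 24 of 38 genes lay below 0 in LIMA1 shRNA cells (51.5% of all genes) and 25 in control shRNA cells (51.5%). In both lines 23 were lower (44.5%) and 12 higher (41.4%). The 38 genes had a median of -0.23 in LIMA1 shRNA cells and -0.24 in control shRNA cells, beside -0.02 in each over all measured genes. With upper-quartile scaling of the libraries 21 and 23 of 38 genes lay below 0. The medians were then -0.15 and -0.18, beside 0.05 and 0.04 over all genes.

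CA9 encodes carbonic anhydrase IX, a cell-surface enzyme that helps export acid and is among the most used markers of HIF activity. In LIMA1 shRNA cells it stood at 93.3 normalized counts with nutlin-3a against 482 untreated, and in control shRNA cells at 207 against 900.2. The 4 libraries thus ranked by both labels, with both nutlin-3a values under both untreated ones. The differences were -2.36 (-2.72 to -2.04) and -2.11 (-2.34 to -1.90), with 245 and 293 of the 12742 genes lower still. HK2, a hexokinase isoenzyme that many tumours induce and that binds mitochondria, stood at 42.9 with nutlin-3a against 139.5 untreated in LIMA1 shRNA cells, and at 29.8 against 82.0 in control shRNA cells. Both nutlin-3a values were again the lower ones, with differences of -1.68 (-2.25 to -1.19) and -1.43 (-2.11 to -0.85). SLC16A3 encodes MCT4, the lactate exporter of glycolytic cells. It stood at 227 against 486 in LIMA1 shRNA cells, a difference of -1.09 (-1.34 to -0.86), and at 184 against 487 in control shRNA cells, a difference of -1.40 (-1.66 to -1.16). The untreated values of the 2 lines were nearly equal. With a pseudocount of 30 in place of 1, HK2 in control shRNA cells was at -0.906, under the size of a call.

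The promoters of these 3 genes are shown because the hypoxia response element has a short core sequence that can be marked. Each window runs from 250 bases before a RefSeq start to 50 after, on the gene's strand, in GRCh38.p14, a later build than the hg19 of the files. Capitals mark ACGTG or GCGTG, the cores of the hypoxia response element, on either strand (read as CACGT or CACGC on the other), with overlapping matches merged. For HK2 and SLC16A3 the start with the most ACGTG matches is given.
CA9, chr9:35673678-35673977, plus strand: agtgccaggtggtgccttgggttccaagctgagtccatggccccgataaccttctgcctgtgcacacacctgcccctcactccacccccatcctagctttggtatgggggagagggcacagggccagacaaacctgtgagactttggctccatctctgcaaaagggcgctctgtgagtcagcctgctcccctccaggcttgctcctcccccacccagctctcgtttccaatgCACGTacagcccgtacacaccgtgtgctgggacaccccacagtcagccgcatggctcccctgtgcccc
HK2, chr2:74834920-74835219, plus strand: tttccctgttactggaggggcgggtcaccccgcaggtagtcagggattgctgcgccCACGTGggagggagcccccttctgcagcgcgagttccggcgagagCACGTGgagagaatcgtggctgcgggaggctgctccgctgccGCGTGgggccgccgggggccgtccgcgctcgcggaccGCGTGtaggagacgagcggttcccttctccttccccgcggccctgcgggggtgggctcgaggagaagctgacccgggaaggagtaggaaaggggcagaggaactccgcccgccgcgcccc
SLC16A3, chr17:82228792-82229091, plus strand: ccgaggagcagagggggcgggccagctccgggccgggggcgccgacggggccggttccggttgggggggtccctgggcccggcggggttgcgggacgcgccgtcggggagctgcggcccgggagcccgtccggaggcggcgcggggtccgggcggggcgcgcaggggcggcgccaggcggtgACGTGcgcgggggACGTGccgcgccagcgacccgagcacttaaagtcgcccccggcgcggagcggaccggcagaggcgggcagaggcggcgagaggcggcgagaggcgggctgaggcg
CA9 held 1 match, which begins 18 bases before the start. HK2 held 4 sites, and SLC16A3 held 2 in this window, while 2 of its other 4 starts held none. RefSeq promoters were found for 34 of the 38 genes, the others being VEGFA, SLC2A3, BNIP3L and NDRG1. Of these 34 genes 31 (91.2%) had ACGTG or GCGTG at 1 start or more, against 71.1% of the 9157 measured genes with a promoter. ACGTG was in 20 (58.8%), against 33.0%, and GCGTG in 21 (61.8%), against 59.1%. The 34 genes have 62 windows and the 9157 genes 13556, and a gene with more windows has more chances of a match. Counted per window, 38.7% of the genes' windows held ACGTG, against 25.4% of those of measured genes and 21.4% of all windows. GCGTG was less frequent than in measured genes, at 41.9%, 48.5% and 36.5% in the same order. Either core was in 67.7%, 60.8% and 48.4%. A match describes the letters and is not a site shown to be bound, and a window without one says nothing of the factor.

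The transcription factors and oxygen sensors differed by less than 1.5-fold in each line. HIF1A stood at 9479 normalized counts with nutlin-3a against 9867 untreated in LIMA1 shRNA cells, and at 9693 against 9099 in control shRNA cells. EPAS1 stood at 9872 against 8026 and at 9835 against 8097, so that both nutlin-3a libraries were higher, by 0.30 (0.26 to 0.34) and 0.28 (0.24 to 0.32). Per kilobase of transcript, HIF1A had 2419, 2473, 2518 and 2322 normalized counts and EPAS1 1911, 1904, 1554 and 1567, in nutlin-3a LIMA1 shRNA, nutlin-3a control, untreated LIMA1 shRNA and untreated control cells. EGLN1, the main oxygen-sensing prolyl hydroxylase, was at -0.53 (-0.60 to -0.46) and -0.52 (-0.59 to -0.45), with 2703 against 3899 and 2778 against 3992 normalized counts. EGLN3, a hydroxylase that HIF itself induces, was at -0.18 (-0.31 to -0.04) in LIMA1 shRNA and -0.40 (-0.56 to -0.24) in control shRNA cells. KDM3A, a histone demethylase and HIF target, was at -0.04 and -0.0045, with 880 to 906 normalized counts in the 4 libraries. These 2 KDM3A differences change sign with upper-quartile scaling of the libraries.

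The glucose transporter genes ran in opposite directions. SLC2A1, which encodes the widely expressed transporter GLUT1, stood at 4466 normalized counts with nutlin-3a against 3613 untreated in LIMA1 shRNA cells, and at 3519 against 2584 in control shRNA cells. SLC2A3, which encodes the high-affinity transporter GLUT3, stood at 1358 against 1877 and at 1537 against 2197. GLUT1 was thus higher in both lines, by 0.31 (0.24 to 0.37) and 0.45 (0.37 to 0.52), and GLUT3 lower, at -0.47 (-0.57 to -0.36) and -0.52 (-0.61 to -0.42). Per kilobase, GLUT1 made up 77.8% of the pair with nutlin-3a against 67.2% untreated in LIMA1 shRNA cells, and 71.0% against 55.6% in control shRNA cells.

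Along glycolysis itself the direction varied by step. HK1, the constitutive hexokinase, was higher, at 2495 against 1803 normalized counts in LIMA1 shRNA cells and 1934 against 1628 in control shRNA cells. The liver, muscle and platelet phosphofructokinases PFKL, PFKM and PFKP were at 0.09 (-0.01 to 0.19), 0.03 (-0.06 to 0.12) and 0.26 (0.22 to 0.31) in LIMA1 shRNA cells. In control shRNA cells PFKL, PFKM and PFKP were at 0.11 (0.01 to 0.21), 0.25 (0.16 to 0.34) and 0.27 (0.23 to 0.32). The PFKP intervals lay above 0 in both lines, and the PFKL and PFKM intervals in LIMA1 shRNA cells held 0. GPI, which converts glucose 6-phosphate, was at -0.64 (-0.66 to -0.61) and -0.54 (-0.57 to -0.51), with 19455 against 30256 and 16505 against 23971 normalized counts. From aldolase to lactate dehydrogenase, each of the 10 genes was lower in both lines: ALDOA, ALDOC, TPI1, GAPDH, PGK1, PGAM1, ENO1, ENO2, PKM and LDHA had differences of -0.69 to -0.07 in LIMA1 shRNA and of -0.74 to -0.12 in control shRNA cells. Of all measured genes 44.5% were lower in both lines by sign, and of these 10 only ALDOC and PGAM1 were lower by 1.5-fold in both. GAPDH in LIMA1 shRNA cells, the smallest of them, was at 0.01 after upper-quartile scaling. PGAM1, a phosphoglycerate mutase, was at 1684 against 2724 and 1654 against 2630. PGK1, the first ATP-forming enzyme of the pathway, was at 20078 against 26843 and 17307 against 24990. LDHA, which turns pyruvate into lactate, was at 26099 against 35655 and 31770 against 42983, and both nutlin-3a values lay under both untreated ones. Together the 16 enzyme genes from hexokinase to LDHA took 2.35% of all normalized counts with nutlin-3a against 2.71% untreated in LIMA1 shRNA cells, and 2.19% against 2.55% in control shRNA cells. GAPDH, PGK1, PGAM1, ENO1 and LDHA have processed pseudogenes, so reads could be split between copies, and their values exceed the range in which that could be checked.

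**Figure D2:**
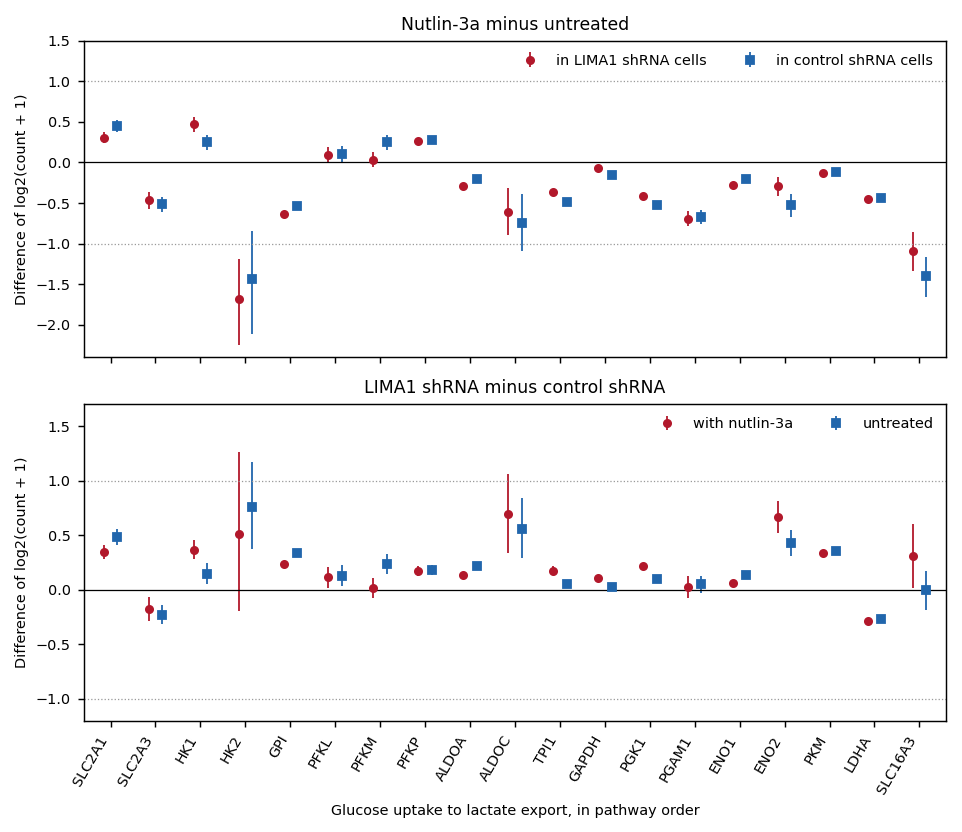
Difference of log2(normalized count + 1) for glucose transporters, enzymes and lactate exporter in pathway order, for nutlin-3a minus untreated (above) and LIMA1 shRNA minus control shRNA (below). Bars are 95% counting intervals and dotted lines the size of a call; from ALDOA to SLC16A3 every nutlin-3a point lies below 0, and in the lower panel LDHA lies below 0 at -0.28 and -0.27.

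Regulators of pathway flux split between isoforms. PFKFB3 and PFKFB4 both make fructose 2,6-bisphosphate, the activator of phosphofructokinase. PFKFB3 was at 4173 against 3610 normalized counts in LIMA1 shRNA cells and 3663 against 3135 in control shRNA cells, higher by 0.21 and 0.22. PFKFB4 was at 86.8 against 144 and 76.4 against 147, differences of -0.73 (-1.14 to -0.33) and -0.93 (-1.36 to -0.54). PDK1, a kinase that blocks pyruvate entry to the citric acid cycle and a known HIF target, was at -0.61 (-0.89 to -0.34) and -0.75 (-1.05 to -0.46). Its relative PDK3 was at 0.05 and -0.01, the second of which changes sign with upper-quartile scaling. CA12, the other acid-handling carbonic anhydrase, ran against CA9: it stood at 33817 against 21819 in LIMA1 shRNA cells and at 28543 against 18399 in control shRNA cells, 1.55-fold higher in each. Per kilobase, CA9 was 1.1% of the pair with nutlin-3a against 8.0% untreated in LIMA1 shRNA cells, and 2.8% against 16.2% in control shRNA cells.

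The collagen prolyl 4-hydroxylase subunits, which HIF induces for matrix assembly, also ran apart. P4HA1 stood at 1011 against 1512 normalized counts in LIMA1 shRNA cells and at 916 against 1419 in control shRNA cells. P4HA2 stood at 1163 against 668 and at 1243 against 784. The differences were -0.58 (-0.70 to -0.46) and -0.63 (-0.75 to -0.51) for P4HA1, and 0.80 (0.66 to 0.94) and 0.66 (0.54 to 0.79) for P4HA2, the highest of the 38 genes in both lines. Both genes had values that were not whole fragments, a sign of reads shared with another gene model, so their intervals are approximate. Per kilobase, P4HA1 made up 44.0% of the pair with nutlin-3a against 67.2% untreated in LIMA1 shRNA cells, and 40.0% against 62.0% in control shRNA cells. With the longest transcript as the length, P4HA1 in LIMA1 shRNA cells with nutlin-3a was 50.6%, so which subunit leads there depends on the length taken. The 2 promoters, printed as above because their genes diverged, held 1 match and none. Across the list, matches could not sort the genes by direction, since few of the genes with a promoter lacked one. Of the 34 genes with a promoter 31 held a match, among them CA12, SLC2A1, PFKFB3, ADM and EPAS1, which were higher in both lines. PGAM1 and EGLN3 were lower in both lines and held none.
P4HA1, chr10:73096817-73097116, minus strand: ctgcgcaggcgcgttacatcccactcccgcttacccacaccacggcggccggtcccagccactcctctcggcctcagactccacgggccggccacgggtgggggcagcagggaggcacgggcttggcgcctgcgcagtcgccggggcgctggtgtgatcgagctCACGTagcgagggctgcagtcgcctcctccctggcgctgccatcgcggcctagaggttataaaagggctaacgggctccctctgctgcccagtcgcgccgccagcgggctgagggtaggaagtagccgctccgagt
P4HA2, chr5:132227042-132227341, minus strand: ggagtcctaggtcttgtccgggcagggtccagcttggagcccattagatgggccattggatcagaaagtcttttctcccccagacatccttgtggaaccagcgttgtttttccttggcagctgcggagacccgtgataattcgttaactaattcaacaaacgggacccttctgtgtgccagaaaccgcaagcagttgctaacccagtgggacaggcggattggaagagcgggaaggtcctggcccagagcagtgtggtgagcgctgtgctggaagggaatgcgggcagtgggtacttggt

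**Figure D3:**
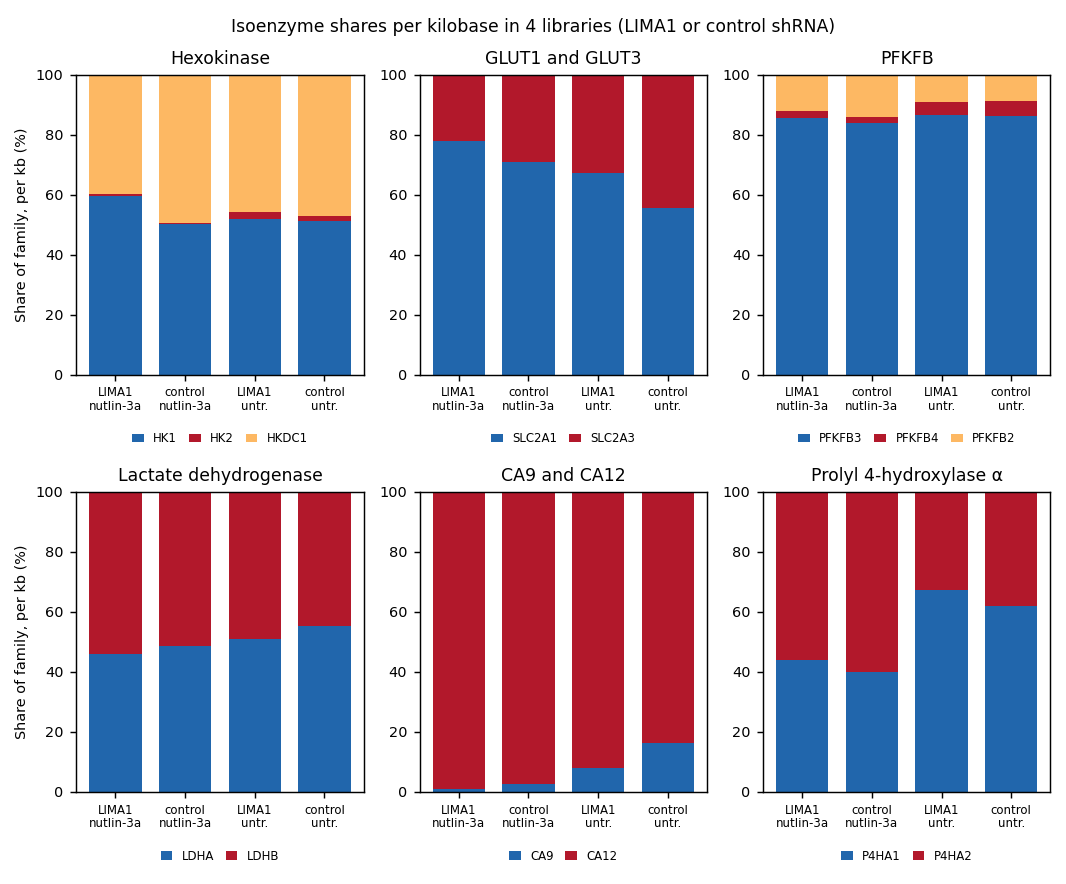
Share of each isoenzyme in its family (%) for selected families, from normalized counts per kilobase of principal transcript, with the 4 libraries along the x axis. Isoenzymes under 0.5% in all 4 libraries are not drawn. The CA9 and P4HA1 shares are lower in both nutlin-3a bars than in both untreated bars, and the SLC2A1 share is higher.

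Among secreted factors, ANGPTL4, a lipoprotein lipase inhibitor, was at 145 against 254 normalized counts in LIMA1 shRNA cells and 228 against 412 in control shRNA cells, differences of -0.81 (-1.12 to -0.51) and -0.85 (-1.09 to -0.62). VEGFA, the main growth factor for blood vessels, was at 836 against 1199 and 551 against 668, differences of -0.52 (-0.65 to -0.39) and -0.28 (-0.44 to -0.12). ADM, which encodes the vasodilator peptide adrenomedullin, was higher, by 0.43 (0.21 to 0.65) and 0.33 (0.16 to 0.50). The mitophagy receptor BNIP3 was at 645 against 638 in LIMA1 shRNA cells and at 506 against 645 in control shRNA cells, so that a single library was low. Its relative BNIP3L was at 0.33 (0.23 to 0.43) and 0.32 (0.23 to 0.42), and the stress gene NDRG1 at 0.25 and 0.11.

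Across the 38 genes the 2 nutlin-3a differences, which share no library, had a Pearson r of 0.97 and a Spearman rho of 0.97. Over all 12742 genes the values were 0.88 and 0.87. These describe the genes, which are not replicates and share library depth.

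**Figure D4:**
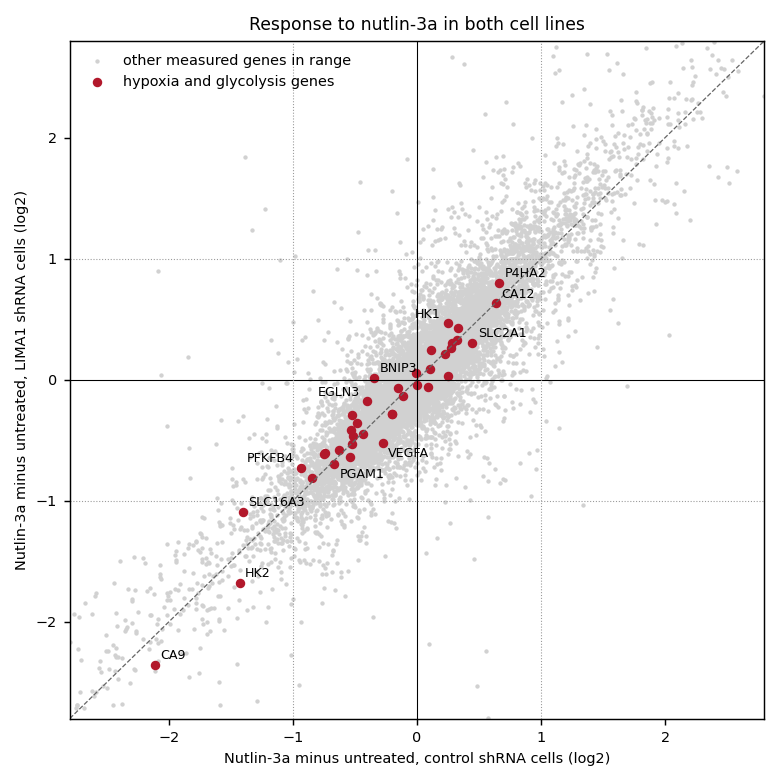
Nutlin-3a minus untreated (log2) in control shRNA cells on the x axis and LIMA1 shRNA cells on the y axis, for the 38 genes (red) over the other measured genes in range (grey); the dashed line marks equal differences and dotted lines the size of a call. The red points follow the line from CA9 at -2.11 and -2.36 to P4HA2 at 0.66 and 0.80.

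Between the cell lines, the differences were smaller and ran both ways. Most glycolytic enzymes, GLUT1, VEGFA and EGLN3 were higher with LIMA1 shRNA, while CA9, ANGPTL4, ADM and LDHA were lower, under nutlin-3a and without it. Under nutlin-3a, 1 of 38 genes was lower by at least 1 (1.94% of all genes were) and 0 were higher (1.26%). In untreated cells 0 of 38 were lower (2.05%) and 0 higher (1.04%). At 1.5-fold, 4 were higher and 2 lower under nutlin-3a, against 4.37% and 5.33% of all genes, and 2 were higher and 3 lower in untreated cells, against 3.47% and 6.04%. Above 0 lay 28 of 38 genes under nutlin-3a (54.6% of all genes, with 45.4% below) and 25 in untreated cells (54.4%, with 45.6% below). In both treatments 24 were higher (40.6%) and 9 lower (31.6%). These splits depended on the scaling: with upper-quartile scaling 24 and 21 of the 38 genes were above 0, and with equal-total scaling 24 and 23. The medians over the 38 genes were 0.16 and 0.10, beside 0.03 and 0.02 over all measured genes. With upper-quartile scaling they were 0.12 and 0.04, beside -0.01 and -0.03 over all genes, and with equal-total scaling 0.11 and 0.05, beside -0.02 and -0.02. Both comparisons set the same 2 cell lines against each other, so a lasting difference between the lines and an effect of the hairpin cannot be told apart.

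VEGFA and CA9 differed in opposite directions. VEGFA stood at 836 normalized counts with LIMA1 shRNA against 551 with control shRNA under nutlin-3a, and at 1199 against 668 in untreated cells. It was higher by 0.60 (0.44 to 0.76) and 0.84 (0.71 to 0.98), and was the gene with the highest difference of the 38 in untreated cells. CA9, at 93.3 against 207 and 482 against 900.2, was at -1.15 (-1.53 to -0.79) under nutlin-3a and -0.90 (-1.06 to -0.74) in untreated cells, the lowest of the 38 in both. With a pseudocount of 30 the first was at -0.95, under the size of a call. Only VEGFA was higher by 1.5-fold in both treatments (1.74% of all genes were), and CA9 and ANGPTL4 were lower by that size in both (3.12%). At the size of 1, 0 of 38 were higher in both (0.447%) and 0 lower (0.957%). ANGPTL4 was at 145 against 228 and 254 against 412, and ADM at 423 against 609 and 315 against 485. In both genes each LIMA1 shRNA value lay under the control value of the same treatment.

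Among the 16 glycolytic enzyme genes of the list, the minor isoforms ENO2, ALDOC and HK2 had the largest differences. The muscle enolase ENO3, which is not in that list, was higher by 0.99 under nutlin-3a and 0.81 in untreated cells, at 298 against 150 and 457 against 260 normalized counts. ENO2, the neuronal enolase, was at 1055 against 665 normalized counts under nutlin-3a and 1293 against 959 in untreated cells, higher by 0.66 (0.52 to 0.81) and 0.43 (0.31 to 0.55). ALDOC, the brain aldolase, was higher by 0.70 (0.34 to 1.06) and 0.56 (0.29 to 0.84), with 174 against 107 and 265 against 179; its values include shared reads. HK2 was higher by 0.51 (-0.19 to 1.26) and 0.76 (0.37 to 1.17), so the counts under nutlin-3a, 42.9 against 29.8, are too few to fix a direction. EGLN3 was at 912 against 555 and 1031 against 733, higher by 0.72 (0.56 to 0.87) and 0.49 (0.36 to 0.63). ENO2 made up 1.8% of the enolases per kilobase with LIMA1 shRNA against 1.2% with control shRNA under nutlin-3a, and 1.8% against 1.4% in untreated cells.

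Among abundant enzymes, PKM, which makes pyruvate, was at 105560 against 83468 normalized counts under nutlin-3a and 115757 against 90490 in untreated cells, higher by 0.34 (0.33 to 0.35) and 0.36 (0.34 to 0.37). GPI was at 19455 against 16505 and 30256 against 23971, and SLC2A1 at 4466 against 3519 and 3613 against 2584, and in both genes each LIMA1 shRNA value was the higher. LDHA alone of the 16 enzyme genes was lower in both treatments, at -0.28 (-0.31 to -0.26) and -0.27 (-0.29 to -0.25). The other 15 were above 0 in both, where 40.6% of all measured genes were. Of those 15, PFKM and PGAM1 under nutlin-3a and GAPDH and PGAM1 in untreated cells were below 0 with upper-quartile scaling. With equal-total scaling, PFKM and PGAM1 under nutlin-3a and GAPDH in untreated cells were below 0. LDHA made up 46.1% of lactate dehydrogenase per kilobase with LIMA1 shRNA against 48.5% with control shRNA under nutlin-3a, and 50.9% against 55.4% in untreated cells, the rest being LDHB. With the longest transcript as the length these shares were 42.4%, 44.8%, 47.2% and 51.7%. Which isoenzyme leads in untreated LIMA1 shRNA cells thus depends on the length taken.

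The remaining genes differed by less than 0.4 in size in both treatments. Those with counting intervals that held 0 in both were EPAS1, EGLN1, KDM3A, PFKFB4, PGAM1, PDK3 and BNIP3L. HK1 was higher by 0.37 (0.28 to 0.45) under nutlin-3a and 0.15 (0.05 to 0.24) in untreated cells. BNIP3 was at 0.35 (0.18 to 0.52) and -0.01 (-0.17 to 0.14). SLC16A3 was at 0.31 (0.02 to 0.60) and -0.0043 (-0.19 to 0.18), the last of which changes sign with median-ratio scaling. Across the 38 genes the 2 LIMA1 shRNA differences, which share no library, had a Pearson r of 0.91 and a Spearman rho of 0.82. Over all genes the values were 0.49 and 0.58. Here too the 2 sets were not matched in level, and counting error is larger at low counts.

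**Figure D5:**
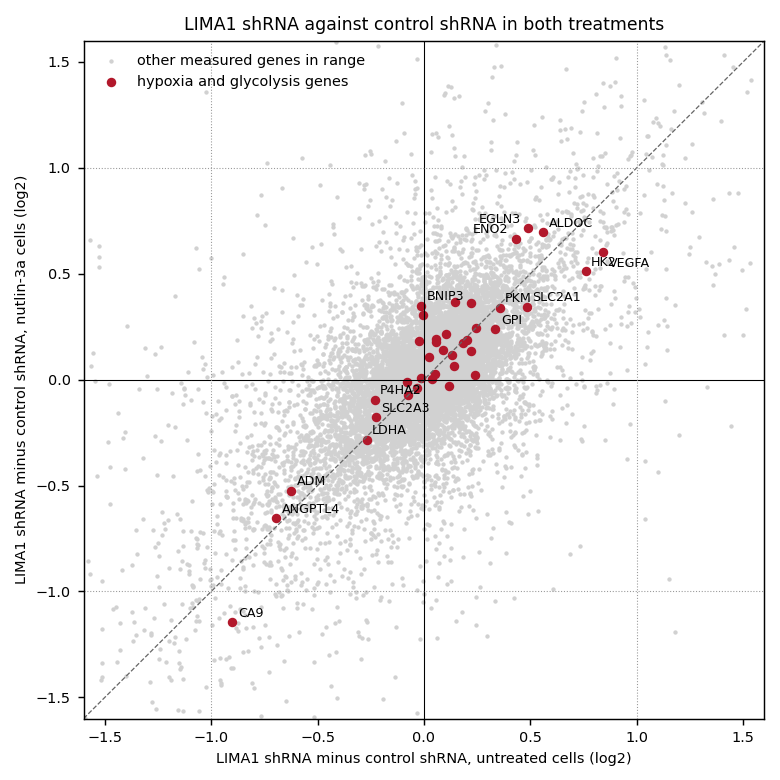
LIMA1 shRNA minus control shRNA (log2) in untreated cells on the x axis and nutlin-3a cells on the y axis, for the 38 genes (red) over the other measured genes in range (grey); the dashed line marks equal differences and dotted lines the size of a call. VEGFA, HK2, ALDOC, ENO2 and EGLN3 lie at the upper right, and CA9, ANGPTL4 and ADM at the lower left.

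Taking the control line's nutlin-3a difference from that of the LIMA1 shRNA line left small values for these genes. Differences ran from -0.25 at HK2 to 0.36 at BNIP3, with a median of 0.01 (0.01 over all genes). Thus 0 of 38 reached 1.5-fold in either direction, where 3.74% of all genes were higher and 2.94% lower, and 0 of 38 reached 1, where 1.27% and 0.816% did. In a list of 38 genes these shares come to few genes, so a count of 0 is near these backgrounds. The 38 genes were also not matched in level to all genes, and fewer of all genes reached 1 with a higher minimum mean. Nothing particular to the 38 genes is therefore read from these counts. CA9 was at -0.24, VEGFA at -0.24, PFKM at -0.22, HK1 at 0.22 and SLC16A3 at 0.31. Above 0 lay 20 of 38 genes (52.0% of all genes, with 48.0% below). With upper-quartile scaling 27 of 38 were above 0, and the share of all genes was not counted under that scaling. The medians with it were 0.03 over the 38 genes and 0.03 over all genes.

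Other genes of the pathways were read from 5 lists. Among 13 other glycolysis and glucose transport genes, 2 were higher by at least 1 and 0 lower with nutlin-3a in each line. The shares of all measured genes were 7.29% up and 6.08% down in LIMA1 shRNA cells, and 5.54% and 5.64% in control shRNA cells. C12orf5, the older symbol of TIGAR, a p53 target whose product breaks down fructose 2,6-bisphosphate, was at 3434 against 623 normalized counts in LIMA1 shRNA cells and 2874 against 616 in control shRNA cells, higher by 2.46 (2.34 to 2.59) and 2.22 (2.10 to 2.35). SLC2A12, a glucose transporter of low level, was higher by 1.39 and 1.57. Among 31 other hypoxia-inducible genes, 1 was higher and 2 lower in LIMA1 shRNA cells and 1 higher and 0 lower in control shRNA cells, against the same shares of all genes. The higher one was KDM4B, a histone demethylase (1.41 and 1.32). The lower ones were EFNA3, which encodes an ephrin (-1.49), and ZNF395 (-1.02). The medians of these hypoxia genes were 0.04 and 0.03, above the medians of the 38 genes.

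No gene reached a difference of 1 with nutlin-3a in either line among 14 genes of HIF control (ARNT, VHL and their partners; medians -0.22 and -0.25), 12 genes of pyruvate entry to mitochondria (-0.18 and -0.07) and 7 genes of the pentose phosphate pathway (0.07 and 0.27). In lists this short the shares of all genes given above come to about 1 gene or fewer in a direction, so nothing particular to them is read from these counts. With LIMA1 shRNA, 2 of the 31 other hypoxia-inducible genes were lower by at least 1 in each treatment and 0 higher. Of all measured genes, 1.94% were lower and 1.26% higher under nutlin-3a, and 2.05% and 1.04% in untreated cells. These 2 were TMEM45A and the mitochondrial adenylate kinase gene AK4, at -1.29 and -1.18 under nutlin-3a and -1.74 and -1.08 in untreated cells. TMEM45A had low counts, at 37.5 against 93.3 under nutlin-3a (interval -1.92 to -0.74) and 22.8 against 78.2 in untreated cells (-2.52 to -1.10). AK4 stood at 168 against 383 normalized counts under nutlin-3a and 245 against 518 in untreated cells. With LIMA1 shRNA under nutlin-3a, 1 of the 13 other glycolysis and glucose transport genes was higher by at least 1 and 0 lower. This was the monocarboxylate transporter SLC16A7, higher by 1.06 (0.84 to 1.29), at 504 against 241. In the response difference, EFNA3 was at -1.02, and 0 other genes of the 5 lists reached 1. Of all measured genes 1.27% were higher and 0.816% lower by that size. EFNA3 had low counts, at 26.8 with nutlin-3a against 77.2 untreated in LIMA1 shRNA cells and 48.6 against 67.9 in control shRNA cells. Its nutlin-3a differences were -1.49 (-2.24 to -0.86) and -0.47 (-1.03 to 0.06), with intervals that overlap.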

How the data were processed

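RNA from 4 A549 cultures was sequenced, with 1 library per group. Per the submitters' processing notes the tools were bcl2fastq 1.8.3, Bowtie2 2.0.12 and Cuffnorm 2.2.1 and the build hg19, with no role stated; its annotation: not given in the sources used here. Values the authors deposited are a signal per gene that, from the values themselves, was a fragment count divided by 1 size factor per library and not by gene length. Of a library's values between 0.5 and 1000 fragments, 85.5% to 86.3% lay within 0.1 of a whole number, too few for a count test, and there are no replicates. Of the 38 genes, 16 could be checked, and ALDOC, PDK1, P4HA1 and P4HA2 held values that were not whole; genes at higher counts could not be checked.

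Differences of log2(normalized count + 1) were taken over all 12742 genes with a mean of at least 30 and read for the 38 genes beside them. On this scale the fold change of low genes is understated. Counting intervals are exact Clopper-Pearson 95% intervals of the ratio of 2 fragment counts. Values were rounded to whole fragments for this. In genes with values that were not whole, or that could not be checked, the intervals are therefore approximate. The labels name no molecular identifiers. Medians over lists have no test. Levels between genes were compared per kilobase of the APPRIS principal transcript in GENCODE 29 (GRCh38), used for lengths only. The calling step was tested on simulated counts that held counting error only and planted differences well above the size of a call. That test therefore says nothing of variation between cultures. Outside the 38 genes, those named are check genes, markers and up to 4 genes per list and contrast that reached a difference of 1; exceptions are named where they occur. The members and lists were chosen with earlier results of these data known. Alternatives were other pseudocounts, scalings, filters, call sizes and, chosen after seeing the data, the longest transcript as length. Python 3.11.15, numpy 2.4.6, pandas 2.3.3, scipy 1.17.1 and matplotlib 3.10.9 were used.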

Additional observations from a re-analysis of the deposited data

Results flagged for a closer look

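HIF1A differed in direction between the cell lines, with counting intervals off 0 in each: nutlin-3a minus untreated was -0.06 in LIMA1 shRNA cells (-0.10 to -0.02) and 0.09 in control shRNA cells (0.05 to 0.13). The difference between the lines was not tested, both values are small, and with upper-quartile scaling the first was 0.02.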

How the results depend on the processing

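Medians over the 38 genes stayed within their order-statistic intervals and kept their sign in every setting tried, except for the response difference, at 0.01, which was -0.0007468 with median-ratio scaling and -0.003331 without genes that share reads. Counts of the 38 genes at the size of 1 were within 1.5 times in all settings but 2. With a pseudocount of 30, 0 genes were lower with LIMA1 shRNA under nutlin-3a. At a size of 1.5-fold the counts higher and lower were 2 and 9 for nutlin-3a in each line, 4 and 2 for LIMA1 shRNA under nutlin-3a and 2 and 3 in untreated cells. Counts over all genes moved more. In the order of nutlin-3a in LIMA1 shRNA cells and then control shRNA cells, LIMA1 shRNA under nutlin-3a and then untreated, and the response difference, higher genes numbered 929, 706, 161, 132 and 162. With means of at least 150 they were 482, 364, 59, 42 and 29. Lower genes numbered 775, 719, 247, 261 and 104, and for the last 3 contrasts 78, 68 and 29 with means of at least 150 and 99, 98 and 41 with a pseudocount of 30, where higher genes were 82, 57 and 43. Without a filter the counts were 4268, 2743, 2448, 1223 and 2931 higher and 1836, 1802, 1688, 1759 and 1998 lower. Without genes that share reads, higher genes were 106 under nutlin-3a and 82 in the response difference, and lower genes in the response difference were 45. The cause was not tested. At 1 fragment per 0.943 to 1.07 normalized counts, HK2 and PFKFB4 had the widest intervals of the 38 genes in all 4 contrasts. With the longest transcript as length, 44 isoenzyme shares moved by more than 1 percentage point and 104 did not. No paired analysis was possible because each group has 1 library, and no library could be left out.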

Other observations

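The genes here were picked out after their values were seen, and apart from HK2 none had a nutlin-3a difference that reached 1. PPP1R3C, a subunit that directs protein phosphatase 1 to glycogen, stood at 1026 normalized counts with nutlin-3a against 633 untreated in LIMA1 shRNA cells and at 823 against 456 in control shRNA cells, and was higher by 0.70 and 0.85. GBE1, the glycogen branching enzyme, stood at 3687 against 2398 and at 2934 against 1882, higher by 0.62 and 0.64. GYS1, the muscle glycogen synthase, was at 0.16 and 0.03. PDK4, a pyruvate dehydrogenase kinase, had most of the family's counts per kilobase, 75.05% with nutlin-3a against 68.4% untreated in LIMA1 shRNA cells and 70.9% against 64.8% in control shRNA cells. HKDC1, a hexokinase-like gene, had 39.9% and 49.4% of hexokinase counts per kilobase with nutlin-3a in LIMA1 and control shRNA cells, against 45.8% and 47.1% untreated. HK2 had 0.6% and 0.5% with nutlin-3a, against 2.5% and 1.6% untreated.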
